A study of Mus musculus with 8 samples.

Results

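The 9 genes described here, Bhmt, Bhmt2, Mtr, Mat1a, Mat2a, Gnmt, Ahcy, Cbs and Cth, encode the core enzymes of the methionine cycle and of transsulfuration. They were taken by symbol from a bulk RNA-Seq count table of mouse liver with 25239 gene symbols, and all 9 were among the 12977 genes with enough reads to be tested. The study asked how loss of Smo in hepatocytes alters a liver under lipotoxic stress. Smo (Smoothened) is the membrane protein that passes on the Hedgehog signal. All 8 mice were adult males with floxed Smo alleles (Smo fl/fl) on a C57Bl6/J background, and all ate CDA-HFD, a high-fat diet without choline and with little methionine, for 6 weeks and received an AAV8 vector 1 week before the liver was taken.

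In the 4 control mice the vector carried luciferase (AAV8-TBG-Luciferase), and the labels give their genotype as WT. In the 4 Smo-KO mice it carried Cre recombinase under the same TBG promoter, which is active in hepatocytes. Whole liver was sequenced, so the libraries also held RNA of cells in which the vector was not meant to act. No liver from mice on another diet was analysed here, so the effect of the diet on these enzymes was not measured.

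Methionine is activated to S-adenosylmethionine (SAM), the methyl donor of the cell. Methyltransferases turn SAM into S-adenosylhomocysteine (SAH), which is hydrolyzed to homocysteine and adenosine. Homocysteine is either methylated back to methionine, with betaine made from choline or with methyl-folate as the donor, or passed through cystathionine to cysteine, the precursor of glutathione and taurine. The liver carries out much of the methionine turnover of the body.

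Reads on genes were 9177277, 9394970, 9891102 and 9999732 in control mice 1 to 4, and 9543675, 9367795, 8203299 and 9445427 in Smo-KO mice 1 to 4. The library of Smo-KO mouse 3 was the shallowest, and the groups did not differ in depth beyond their spread (two-sided exact permutation test, p = 0.257, n = 4 per group). Values are given as CPM, that is, reads of a gene per 1000000 reads of its library, after scaling of the libraries by edgeR's TMM method, and 3 reads correspond to 0.297 to 0.366 CPM.

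Smo itself was measured at 8.17, 8.49, 8.75 and 8.21 CPM in the control livers and at 5.67, 3.93, 4.27 and 4.37 CPM in the Smo-KO livers. All Smo-KO livers lay below all controls, and Smo-KO mouse 1 kept the most. The mean Smo level in Smo-KO livers was 54.3% of control, a log2 fold change of -0.88 (SE 0.16, exact permutation p = 0.0286, the smallest that 4 against 4 allows). The p adjusted by Benjamini-Hochberg was 0.0957 by the quasi-likelihood test of edgeR, so Smo did not pass the threshold of 0.05 there. It passed with DESeq2 (adjusted p = 0.00646), with no filter on low counts (adjusted p = 0.0385, edgeR) and without Smo-KO mouse 1 (adjusted p = 0.0266, edgeR). Among the 15 alternatives its highest adjusted p was 0.219 (edgeR).

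Of the 9 enzymes, 5 had a higher and 4 a lower fitted level in Smo-KO livers, with Cbs (-0.78) and Cth (-0.39) the lowest in log2 fold change. Of the same 9 enzymes, 0 passed the threshold of 0.05 on the adjusted p of edgeR, against 0.0% of all 12977 genes tested. DESeq2 called 1.29% of 12974 genes and likewise 0 of the 9. At an unadjusted p under 0.05, 2 of the 9 were lower in Smo-KO livers (Cbs and Cth) and 0 were higher, against 13.8% of all genes in either direction, 7.15% in the lower and 6.70% in the higher direction. The groups did not overlap in CPM for 1 of the 9 (Cbs), against 7.37% of all genes, 4.34% with Smo-KO lower and 3.03% with Smo-KO higher. The median log2 fold change was 0.00 over the 9 enzymes and -0.0008 over all genes tested, and 6 of the 9 lay within 0.13 of zero.

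**Figure D1:**
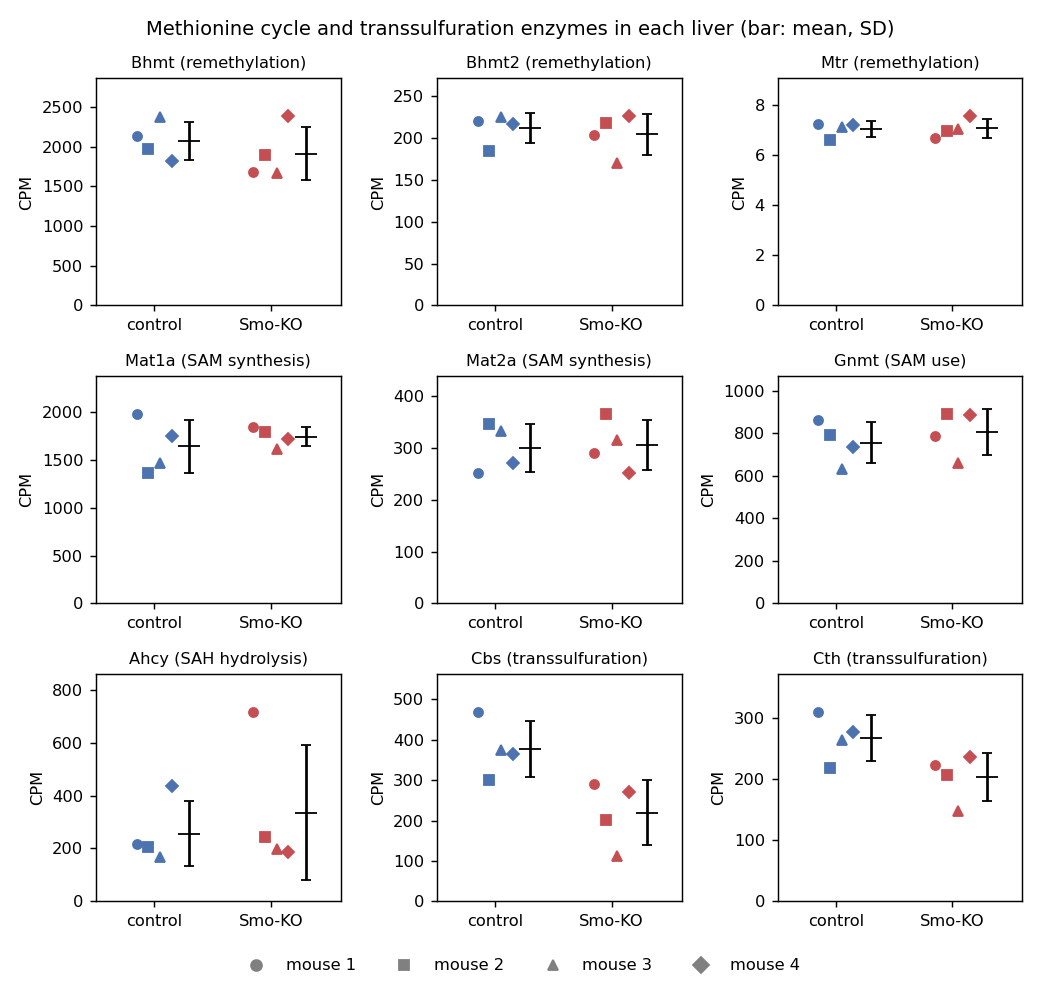
CPM (vertical axes, starting at 0) of the 9 enzymes in each control and Smo-KO liver, with a symbol for each mouse number and a bar for the mean and SD of 4 livers. The 4 Smo-KO livers sit below the 4 controls for Cbs, and Smo-KO mouse 1 stands above the other livers for Ahcy.

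**Figure D2:**
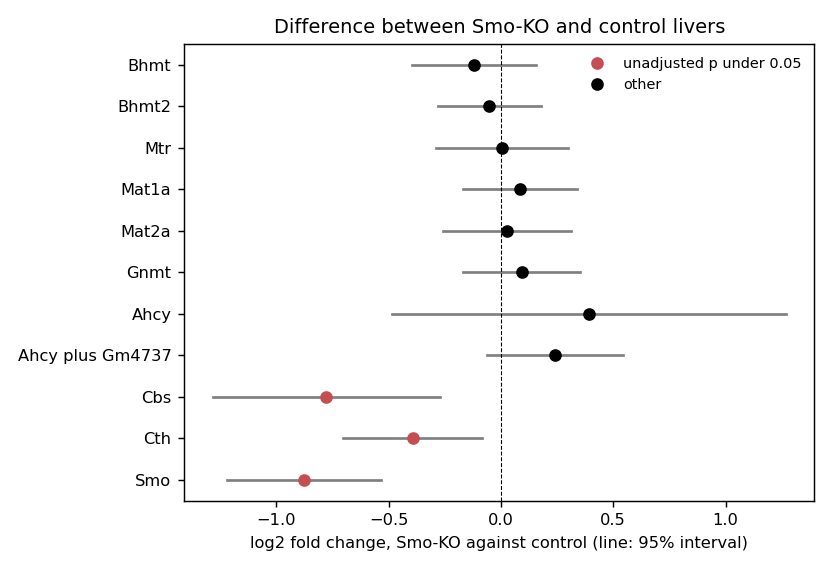
Log2 fold change of Smo-KO against control livers (horizontal axis) for each enzyme, the summed reads of Ahcy and its copy Gm4737, and Smo, with the 95% interval of edgeR's fit. The intervals of Cbs, Cth and Smo lie below 0 and that of Ahcy is the widest.

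Remethylation of homocysteine in liver depends largely on Bhmt, which takes the methyl group from betaine. Bhmt (chr13:93616675-93637961, minus strand, GRCm38) was measured at 2138, 1967, 2379 and 1819 CPM in the control livers and at 1682, 1900, 1676 and 2385 CPM in the Smo-KO livers. Smo-KO mouse 4 had the highest value of all 8 livers and Smo-KO mice 1 and 3 the lowest, so the groups overlapped. The log2 fold change was -0.12 (SE 0.13, 95% interval -0.39 to 0.16, adjusted p = 0.719 by edgeR). Of all 100-base stretches of the longest coding transcript of Bhmt, 41.6% also occur in another annotated gene, mostly Gm5096, so the level of Bhmt is less certain than that of the enzymes with no such copy.

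Bhmt2, the neighboring paralog that methylates homocysteine from S-methylmethionine, lies at chr13:93655720-93674302 on the minus strand. It was measured at 221, 185, 225 and 216 CPM in control livers and 203, 218, 170 and 226 CPM in Smo-KO livers. The lowest and the highest value both came from Smo-KO livers, and the log2 fold change was -0.05 (SE 0.11, 95% interval -0.28 to 0.18). Bhmt gave 8.27 to 10.6 reads for every Bhmt2 read across the 8 livers.

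Mtr, the cobalamin-dependent methionine synthase that uses methyl-folate (chr13:12182712-12258113, minus strand), was the least abundant enzyme per length. It was measured at 7.26, 6.61, 7.16 and 7.22 CPM in control livers and 6.70, 6.98, 7.07 and 7.57 CPM in Smo-KO livers. These values rest on 58 to 73 reads per liver, and the log2 fold change was 0.00 (SE 0.14, 95% interval -0.29 to 0.30).

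SAM is synthesized by Mat1a in the adult hepatocyte and by Mat2a in most other cells and in dividing or injured liver. Mat1a (chr14:41105035-41124412, plus strand) was measured at 1980, 1370, 1470 and 1756 CPM in control livers and 1849, 1792, 1616 and 1722 CPM in Smo-KO livers, which lay inside the control range. The log2 fold change was 0.09 (SE 0.12, 95% interval -0.17 to 0.34). Mat2a (chr6:72432799-72439558, minus strand) was measured at 252, 346, 332 and 270 CPM in control livers and 291, 365, 316 and 251 CPM in Smo-KO livers, with a log2 fold change of 0.03 (SE 0.13, 95% interval -0.26 to 0.31). The lowest and the highest Mat2a value both came from Smo-KO livers. Particl, a gene on the opposite strand that overlaps Mat2a, had 20 to 38 reads per liver, and whether the counting used strand was not given in the sources used here.

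The ratio of Mat1a to Mat2a reads, often read as a mark of hepatocyte differentiation, was 7.86, 3.97, 4.42 and 6.50 in control livers and 6.36, 4.91, 5.12 and 6.87 in Smo-KO livers. The Smo-KO values lay within the control range.

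Gnmt, which methylates glycine and thereby disposes of excess SAM, lies at chr17:46725664-46729168 on the minus strand. It was measured at 863, 790, 634 and 735 CPM in control livers and 785, 890, 660 and 887 CPM in Smo-KO livers. Smo-KO mice 2 and 4 were above all controls and Smo-KO mouse 3 near the lowest control. The log2 fold change was 0.09 (SE 0.12, 95% interval -0.17 to 0.35).

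Ahcy, the enzyme that hydrolyzes SAH, was the most variable of the 9 as counted. It lies at chr2:155059310-155074497 on the minus strand with 10 exons, and a single-exon gene, Gm4737 (chr16:46152985-46155077, minus strand), carries a near-identical copy. Over 2083 aligned bases the copy differs from the Ahcy transcript at 6 positions, an identity of 99.7%. Of these positions 4 lie in the coding sequence, which is 1296 bases long in both, and 2 in the 3′ UTR. Counted from the A of the start codon, the coding differences are C459T, G474A, C1050T and C1068T, with the base of Ahcy first. The stretches around them are shown because within the aligned part only such positions tell the transcripts apart. Capitals mark the differing bases, and the first pair covers coding positions 439 to 494, the second 1030 to 1088.
Ahcy, first stretch: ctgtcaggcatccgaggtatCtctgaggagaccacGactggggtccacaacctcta
Gm4737, first stretch: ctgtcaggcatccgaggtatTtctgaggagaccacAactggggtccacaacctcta
Ahcy, second stretch: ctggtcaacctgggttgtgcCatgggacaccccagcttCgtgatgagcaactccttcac
Gm4737, second stretch: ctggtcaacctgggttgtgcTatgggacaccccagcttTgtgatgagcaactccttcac

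Ahcy was measured at 215.5, 204.0, 168 and 438 CPM in control livers and at 715, 243, 199.8 and 186 CPM in Smo-KO livers. Smo-KO mouse 1 was the highest and control mouse 4 the next, and the remaining 6 livers lay between 168 and 243 CPM. Gm4737 was measured at 333, 252, 223 and 167 CPM in control livers and at 3.40, 331, 351 and 334 CPM in Smo-KO livers. In reads, Smo-KO mouse 1 had 33 for Gm4737 and 6937 for Ahcy, whereas Smo-KO mouse 2 had 3035 for Gm4737 and 2226 for Ahcy. The livers highest in Ahcy were thus the lowest in Gm4737, and the ratio of Gm4737 to Ahcy reads was 0.00476 in Smo-KO mouse 1, 0.381 in control mouse 4 and 1.24 to 1.79 in the other livers. Among 9337 genes with a mean of at least 10 CPM, Gm4737 was the only gene for which a liver lay more than 10 times below every other liver.

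Ahcy as counted had a log2 fold change of 0.39 (SE 0.41, 95% interval -0.49 to 1.27, adjusted p = 0.709 by edgeR), which turned to -0.28 without Smo-KO mouse 1. With the reads of Ahcy and Gm4737 summed, the livers gave 548, 456, 390.3 and 605 CPM in controls and 719, 574, 551 and 519.9 CPM in Smo-KO mice. The groups overlapped, and the log2 fold change of the sum was 0.24 (SE 0.14, 95% interval -0.06 to 0.54, adjusted p = 0.470 by edgeR). The error of the sum was close to that of the other enzymes, although the sum counts reads of both genes. Of the 100-base stretches of Ahcy, 72.1% occur in other annotated genes, and how the counting treated reads that fit several places was not given in the sources used here.

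**Figure D3:**
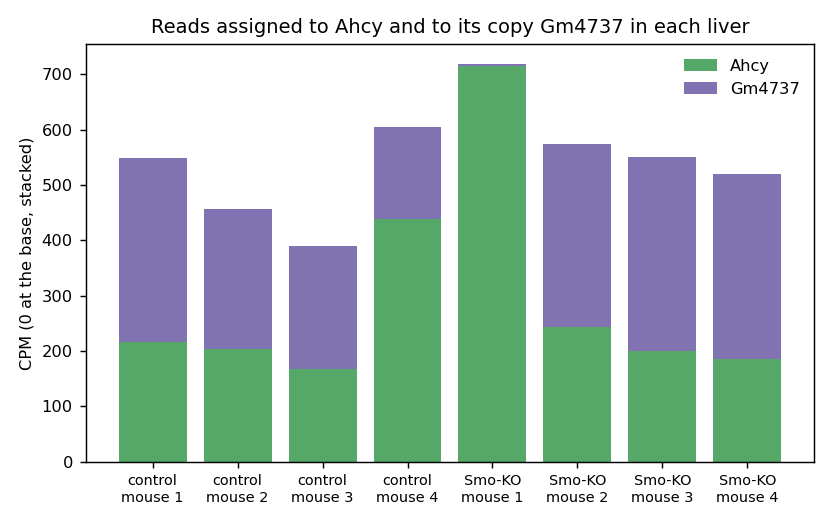
CPM of Ahcy and of Gm4737 stacked for each of the 8 livers, on a vertical axis that starts at 0. Smo-KO mouse 1 holds 715 CPM of Ahcy and 3.40 CPM of Gm4737, and the stacked totals run from 390.3 to 719 CPM.

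Cbs, which joins homocysteine to serine and so commits it to transsulfuration, gave the largest difference of the 9 (chr17:31608894-31637238, minus strand). It was measured at 468, 299.8, 375 and 364 CPM in control livers and at 292, 202, 113 and 272 CPM in Smo-KO livers. Every Smo-KO liver was below every control, although Smo-KO mouse 1 came close to control mouse 2, and Smo-KO mouse 3 was far below the rest. The mean was 377 ± 69.4 CPM in control and 219.5 ± 80.8 CPM in Smo-KO livers (SD, n = 4 each), so that Smo-KO livers held 58.3% of the control level. The log2 fold change was -0.78 (SE 0.23, 95% interval -1.28 to -0.27, exact permutation p = 0.0286). In the quasi-likelihood test of edgeR the unadjusted p was 0.00556 and the adjusted p 0.197, so the difference did not pass the threshold across all genes.

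Without Smo-KO mouse 3 the log2 fold change of Cbs was -0.56 (adjusted p = 0.276, edgeR). The exact permutation p of Cbs with a single liver left out was 0.0286 or 0.0571, the latter without Smo-KO mouse 2, 3 or 4 or control mouse 1, 3 or 4. Only 35 assignments then exist and p moves in steps of 0.0286, so these values say little on the stability of the difference. In whole liver, fewer cells that express a gene and less RNA per cell cannot be told apart.

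Cth, which splits cystathionine to release cysteine, lies at chr3:157894248-157925077 on the minus strand. It was measured at 309.6, 219, 264 and 277 CPM in control livers and at 223, 208, 148 and 236 CPM in Smo-KO livers. Smo-KO mice 2 and 3 were below all controls, and Smo-KO mice 1 and 4 were slightly above control mouse 2. The mean was 267 ± 37.8 CPM in control and 204 ± 38.7 CPM in Smo-KO livers (SD, n = 4 each), or 76.2% of control. The log2 fold change was -0.39 (SE 0.14, 95% interval -0.70 to -0.08, adjusted p = 0.263, edgeR). The exact permutation test gave p = 0.0857, and without control mouse 1 the edgeR p was 0.0544.

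Cbs and Cth varied together across the livers. Pearson's r of their log2 CPM over 8 livers was 0.971 (exact permutation p = 0.000298, adjusted over the 36 pairs of enzymes 0.0107), and Spearman's rho was 0.881 (exact permutation p = 0.00724, adjusted 0.193). Without Smo-KO mouse 3 and control mouse 1, the livers farthest from the median of Cbs, r was 0.853, and over deviations from the group means it was 0.948. The permutations ran over all 8 livers regardless of group, so their p also holds the group difference of both genes. The r over deviations was not tested. Of the 36 pairs, 2 had an unadjusted p under 0.05 for r and 1 an adjusted p under 0.05, the other pair being Bhmt2 with Cth (r = 0.794, 0.341 without its 2 farthest livers). Cbs also differed in proportion to Cth, with 1.51, 1.37, 1.42 and 1.31 Cbs reads for every Cth read in control livers and 1.310, 0.972, 0.762 and 1.150 in Smo-KO livers. These ratios did not overlap between groups, by a margin of 1.313 in control mouse 4 against 1.310 in Smo-KO mouse 1, and were not tested.

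**Figure D4:**
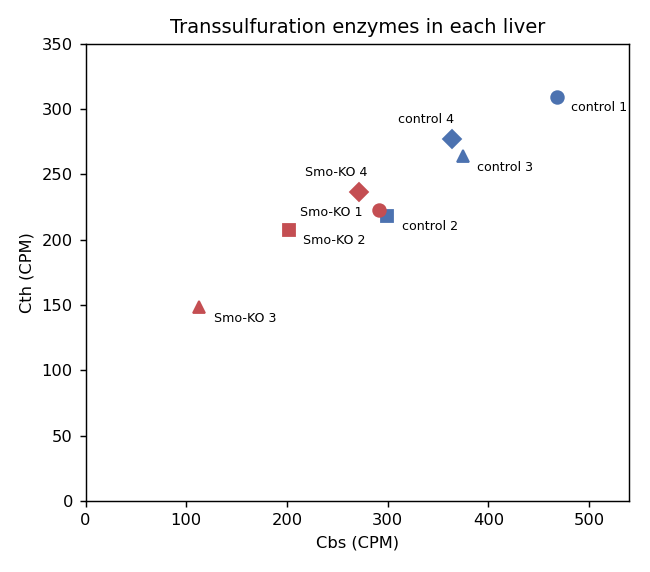
Cth (vertical axis, CPM) against Cbs (horizontal axis, CPM) in the 8 livers, controls in blue and Smo-KO in red, both axes starting at 0. The livers lie along a line from Smo-KO mouse 3 to control mouse 1, with r = 0.971 on the log2 scale.

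Relative to Bhmt, the competing use of homocysteine, Cbs gave 0.219, 0.152, 0.158 and 0.200 reads per Bhmt read in control livers and 0.173, 0.106, 0.0675 and 0.114 in Smo-KO livers. Smo-KO mouse 1 lay among the controls and the other 3 Smo-KO livers below them.

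The sequence upstream of Cbs is shown because Cbs had the clearest difference. It covers 217 bases (chr17:31637239-31637455, minus strand, GRCm38.p6) that end at the start of Cbs in GENCODE M21. They are part of the 250 bases before the RefSeq start, which lies further downstream. Capitals mark CACGTG (the E-box) and GGGCGG (the GC box) within this stretch.
Cbs upstream: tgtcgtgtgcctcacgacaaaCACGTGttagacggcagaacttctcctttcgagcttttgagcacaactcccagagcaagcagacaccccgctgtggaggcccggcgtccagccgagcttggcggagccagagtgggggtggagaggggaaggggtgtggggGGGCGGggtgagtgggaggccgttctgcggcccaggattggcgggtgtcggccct

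The 250 bases before the RefSeq start were searched on both strands for 6 motifs in the 7 enzymes with a RefSeq entry and in 32851 promoters in all. CACGTG occurs in 6.02% of all promoters and among the 7 enzymes in Cbs alone. GGGCGG occurs in 32.7% of promoters and in 5 of the 7 enzymes, and CCAAT in 33.9% of promoters and in 6 of the 7. TATAAA occurs in 12.4% of promoters and among the 7 in Mat2a alone. TGATGNAA, a form of the site bound by ATF4 with its partners, and TGACNNNGC, the antioxidant response element, were not found in these windows of the 7 enzymes and occur in 3.45% and 10.2% of promoters. A match is a description of the letters and not a binding site. Mat1a and Cth had no entry in the promoter table.

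Across livers within a group, the biological coefficient of variation of edgeR was 0.394 for Ahcy and 0.234 for Cbs. For the other 7 enzymes it ran from 0.0949 for Mtr to 0.149 for Cth. The median over all genes with a mean of at least 100 CPM was 0.111, so the counts of Ahcy and Cbs varied most from mouse to mouse. With the reads of Ahcy and its copy Gm4737 summed, the coefficient was 0.147, close to that of Cth. The value of Ahcy as counted thus also holds how reads were split between the 2 genes.

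Per length of the longest annotated transcript, in TPM (length-corrected reads scaled to a sum of 1000000 per library) averaged over the 8 livers, Gnmt was the most abundant at 1650 TPM. Bhmt followed at 1102 TPM and Mat1a at 1068 TPM, and these ranked 65, 117 and 130 among 24374 genes. The length used for Bhmt was 3963 bases, whereas its longest coding transcript has 2490, so its level by this measure may be too low. Cth, Ahcy, Mat2a and Bhmt2 lay at 284, 257, 196 and 185 TPM, Cbs at 105 TPM and Mtr at 1.87 TPM. The ranges over the livers separated only Mat1a from Cth and Cbs from Mtr among neighbors in this order. Gnmt was above Bhmt in all 8 livers by transcript length and in 0 of 8 by coding length, so the order depends on the length used. Per coding length Bhmt, Mat1a and Gnmt stood at 1655, 1444 and 899 TPM and Cbs at 180 TPM, with Cbs and Mtr again the lowest.

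Of the genes whose log2 CPM followed Cbs most closely over the 8 livers, Mcu, the pore of the mitochondrial calcium uniporter, reached r = 0.994, Ap1b1, an adaptor subunit of clathrin-coated vesicles, 0.989 and Coq8a, a factor of coenzyme Q synthesis, 0.985. With Cbs, 187 of 9337 genes reached an r of at least 0.9. With Bhmt, 3 genes did so, namely Ola1 (0.937), Ttc5 (0.931) and 1700066M21Rik (0.907). These correlations are descriptions and carry no p.

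Around the core enzymes, 98 further genes were read in 8 lists, of which 7 hold genes that supply, regulate or carry substrates of these pathways or use their products and 1 holds genes that respond to amino acid shortage, and 94 were tested. At an unadjusted p under 0.05, 3 stood higher and 8 lower in the Smo-KO group, that is 11.7% against 13.8% of all genes, and 0 passed adjustment in edgeR. Of the 8 lower, 4 are amino acid response genes and 4 come from the list on cysteine use and glutathione synthesis. That list also holds genes of sulfide and sulfite oxidation and of glutathione breakdown. The median log2 fold change over all 94 tested genes was -0.07. Without Smo-KO mouse 1 the count was 23, or 24.5%, and the share of all genes in that setting was also higher, at 17.8%.

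The genes nearest the cycle showed 0 of 5 regulators and adenosine-removing enzymes, 0 of 9 genes of betaine supply and use, and 0 of 10 genes of folate and cobalamin supply with an unadjusted p under 0.05, against 13.8% of all genes. Of the 9 betaine genes, 8 had a fitted level below control, against 6507 of all 12977 genes tested, with a median log2 fold change of -0.12. Adk, the kinase that removes adenosine, was at 569 ± 28.1 CPM in control and 572 ± 50.7 CPM in Smo-KO livers, and Ahcyl1, a homolog of Ahcy, at 147 ± 9.56 and 152 ± 12.3 CPM. Sardh, the sarcosine dehydrogenase that returns the product of Gnmt to glycine, was at 585 ± 115 and 547 ± 60.1 CPM. Tcn2, the carrier of cobalamin in plasma, was at 209 ± 28.2 and 197 ± 16.4 CPM, and Mthfd1, which interconverts folates, at 189 ± 26.9 and 162 ± 17.3 CPM (SD, n = 4 for each group).

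Among 18 SAM-dependent methyltransferases, 1 was higher and 0 lower at an unadjusted p under 0.05, near the shares of all genes (6.70% higher and 7.15% lower). Nnmt, which methylates nicotinamide, was measured at 3.29, 5.77, 3.58 and 4.25 CPM in control livers and 7.42, 14.0, 6.22 and 4.48 CPM in Smo-KO livers, a log2 fold change of 0.92 (SE 0.32). Smo-KO mouse 4 lay within the control range. Mettl7b, an alkyl thiol methyltransferase, had the highest CPM of the list and a log2 fold change of 0.01. Among 11 tested genes of methionine salvage and polyamine metabolism 0 had an unadjusted p under 0.05, against 13.8% of all genes, and those with the highest CPM, Sat1 and Adi1, had log2 fold changes of 0.13 and -0.10.

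Downstream of transsulfuration, 16 genes of cysteine use, sulfide and sulfite oxidation, and glutathione synthesis and breakdown were tested. Of these, 1 was higher and 4 were lower at an unadjusted p under 0.05, where 6.70% of all genes were higher and 7.15% lower. Oplah, which opens 5-oxoproline to glutamate, was measured at 122, 123, 115 and 117 CPM in control livers and at 145, 207, 238 and 166 CPM in Smo-KO livers. All Smo-KO livers were above all controls (log2 fold change 0.66, SE 0.13, adjusted p = 0.116, edgeR), and Smo-KO mouse 3, the lowest in Cbs, was the highest.

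Gclc, the catalytic subunit of the enzyme that starts glutathione synthesis, was measured at 445, 559, 522 and 572 CPM in control livers and at 458, 382, 362 and 443 CPM in Smo-KO livers. Only Smo-KO mouse 1 was above the lowest control, and the log2 fold change was -0.35 (SE 0.11, adjusted p = 0.211, edgeR). Ethe1 and Suox, both of mitochondrial sulfide and sulfite oxidation, had log2 fold changes of -0.44 (SE 0.17) and -0.30 (SE 0.13), and Chac1, which degrades glutathione, -0.68 (SE 0.27), with overlapping groups in each. Cdo1, the dioxygenase that commits cysteine to taurine, had the highest CPM of the list at 1131 ± 126 CPM in control and 1100 ± 67.8 CPM in Smo-KO livers.

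Of 13 tested carriers of methionine, cystine and related amino acids, 1 was higher at an unadjusted p under 0.05, near the 6.70% of all genes. This was Slc43a1, a carrier of large neutral amino acids, with a log2 fold change of 0.54 (SE 0.21). Slc38a3 and Slc38a4, the carriers with the highest CPM, had log2 fold changes of 0.14 and 0.02. Of 12 genes that respond to amino acid shortage, 4 were lower and 0 higher at an unadjusted p under 0.05, against 7.15% of all genes lower, with a median of -0.41 and 0 passing adjustment in edgeR. By fitted level 10 of the 12 were lower and 2 higher, against 6507 lower of all 12977 genes tested. Atf4, the transcription factor that directs this response, was measured at 244, 189, 240.4 and 188 CPM in control livers and at 180.1, 147, 163 and 156 CPM in Smo-KO livers, with no overlap (log2 fold change -0.42, SE 0.11, adjusted p = 0.163, edgeR).

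Fgf21, a hormone secreted by the stressed liver, was measured at 116, 31.6, 99.97 and 49.3 CPM in control livers and at 64.4, 13.3, 15.7 and 12.1 CPM in Smo-KO livers. Smo-KO mouse 1 lay among the controls and the other 3 Smo-KO livers below them (log2 fold change -1.48, SE 0.52). Ddit3 and Sesn2, both stress-induced, had log2 fold changes of -0.52 (SE 0.18) and -0.43 (SE 0.20), and Cebpb, with the highest CPM of the list, -0.05 (SE 0.13).

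**Figure D5:**
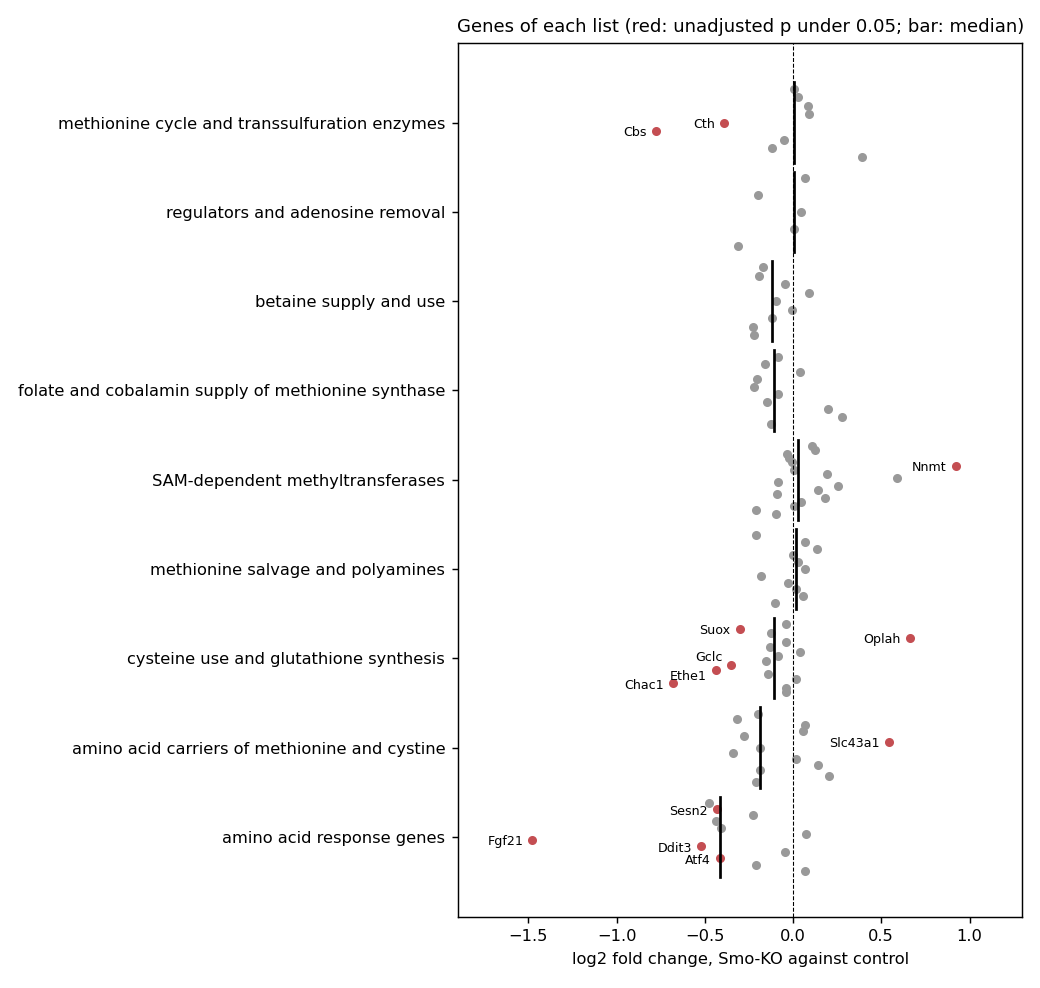
Log2 fold change of Smo-KO against control livers (horizontal axis) for each tested gene of the 9 lists, in red where the unadjusted p was under 0.05, with a bar at the median of each list. Most genes lie near 0, Cbs and Cth are the red points among the core enzymes, and the amino acid response genes have the lowest median at -0.41.

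Markers of liver cell types were read beside these values. Alb, the hepatocyte marker with the highest CPM, was at 16570 ± 973 CPM in control and 15340 ± 897 CPM in Smo-KO livers, and 1 of 8 hepatocyte markers had an unadjusted p under 0.05, near the 13.8% of all genes, namely Cps1 at a log2 fold change of -0.33. Of the 8 hepatocyte markers, 2 had a higher and 6 a lower fitted level. The summed CPM of the pericentral, periportal, macrophage, stellate, endothelial, cholangiocyte, B cell and neutrophil lists overlapped between groups, while Ly6g was at 0 in all livers. These sums are carried by their most abundant genes, and single members had an unadjusted p under 0.05. These were 1 of 10 macrophage and 2 of 9 pericentral markers on the higher side (6.70% of all genes) and 1 of 10 stellate and 1 of 8 endothelial markers on the lower side (7.15% of all genes). Trem2, a receptor of lipid-associated macrophages, was at 33.6 ± 2.94 CPM in control and 56.5 ± 9.70 CPM in Smo-KO livers without overlap (log2 fold change 0.75, SE 0.13, adjusted p = 0.0957, edgeR). The 10 macrophage markers did not move as a set, with 5 at a higher and 5 at a lower fitted level. Cd5l, the macrophage marker with the highest CPM, had a log2 fold change of -0.07 (SE 0.18). The pericentral genes Slc1a2, a glutamate carrier whose groups did not overlap, and Rhbg, an ammonium carrier, had log2 fold changes of 0.55 (SE 0.19) and 0.25 (SE 0.12). Of the 9 pericentral markers, 6 had a higher and 3 a lower fitted level. Col1a1, a collagen chain, and Pecam1, an endothelial adhesion protein, had -0.37 (SE 0.13) and -0.50 (SE 0.20). Other members of these lists went the other way, with 5 of 10 stellate and 2 of 8 endothelial markers at a higher fitted level. Col3a1 and Stab1, the members with the highest CPM, had log2 fold changes of -0.23 (SE 0.12) and 0.29 (SE 0.14). All 6 tested markers of T and NK lymphocytes were lower at an unadjusted p under 0.05, against 7.15% of all genes (0 after adjustment), and the sum of the 9 list genes in the table was 53.5, 58.4, 47.8 and 65.4 CPM in control livers and 24.9, 21.4, 36.1 and 36.6 CPM in Smo-KO livers without overlap. Nkg7, with the highest CPM of them, was at 14.5 ± 3.09 and 7.59 ± 2.44 CPM. The part of these cell types in the values of Cbs and Cth was not tested.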

How the data were processed

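Whole-liver RNA was made into libraries with a kit from NEB and sequenced on an Illumina NovaSeq. The deposited files hold raw counts of reads per gene symbol, 1 file per liver, made by the authors. The submitters' processing notes name fastp, STAR 2.7.5, featureCounts 2.0.1 and GRCm38, whereas the 5 closing rows of each file carry htseq-count names. These rows were left out of library sizes (no feature 7.56% to 9.68% and ambiguous 2.45% to 2.61%). Strand setting and annotation were not given in the sources used here.

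Counts were filtered with filterByExpr, scaled by TMM and tested with edgeR 4.0.16 in R 4.3.3 (glmQLFit and glmQLFTest, group as the only term), with Benjamini-Hochberg adjustment over all 12977 genes tested and a threshold of 0.05. Scripts were tested on simulated data. Single genes were compared by a two-sided exact permutation test over 70 assignments, and log2 CPM for correlations used a prior count of 2. Copies were sought with blastn 2.17.0 (alignments of at least 500 bases) in GENCODE M21 transcripts. TPM used the longest transcript, or the coding length as an alternative. Other settings were other size factors, other filters on low counts, DESeq2 1.42.0, the replicate number as a block and each liver left out. Counts of livers in a group differed by far more than sampling noise (chi-square per degree of freedom 7.76 to 17.6).

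The 9 enzymes and the lists around them were chosen with earlier results of these data known. Text names Smo, the 9 enzymes, in each pathway list every gene with an unadjusted p under 0.05 and the 2 with the highest mean CPM, in each marker list the gene with the highest mean CPM and genes at 0, and the 3 genes most correlated with Cbs (smallest p) and with Bhmt (highest mean CPM). Cps1, Trem2, Slc1a2, Rhbg, Col1a1, Pecam1, Gm4737, Particl, Gm5096, Ass1 and Gm5424 were named after their values were seen. Some genes that this rule names are not reported here.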

Additional observations from a re-analysis of the deposited data

Results flagged for a closer look

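In a group of 4 livers, a liver was marked where its gap to the nearest of the others, divided by the range of the group, exceeded Dixon's value of 0.829. This happened in 7 of 100 groups of values examined, where chance would give about 5 for independent groups chosen beforehand. Ahcy and Gm4737 are not independent, and Gm4737 was added after its values were seen. The 2 counts therefore cannot be set against each other as a test. Ahcy reached 715 CPM in Smo-KO mouse 1 against 186 to 243 CPM in the other Smo-KO livers, and its copy Gm4737 was at 3.40 CPM in the same liver against 331 to 351 CPM. Fgf21 was at 64.4 CPM in Smo-KO mouse 1 against 12.1 to 15.7 CPM in the other Smo-KO livers. Mtr was at 6.61 CPM in control mouse 2 against 7.16 to 7.26 CPM in the other controls, a gap of few reads. Control mouse 1 was the highest control for Mthfd1 (229 CPM against 169.8 to 179.5 CPM) and for Ddit3 (55.5 CPM against 39.2 to 41.3 CPM). The library of Smo-KO mouse 3 had 8203299 reads assigned to genes, and the other Smo-KO libraries had 9367795 to 9543675. What sets Smo-KO mouse 1 apart was not tested, and neither was whether its strain background differs at Ahcy and Gm4737.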

How the results depend on the processing

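None of the 9 enzymes had an adjusted p under 0.05 under any of 15 alternatives (0 in each). The count with an unadjusted p under 0.05 ran from 1 to 2 when a liver was left out and was 2 otherwise, Cth losing its call without control replicate 1. The count in the lists around them ran from 8 to 23 when a liver was left out, with 23 without Smo-KO mouse 1, where 17.8% of all genes had an unadjusted p under 0.05 against 13.8% with all livers. By the exact permutation test, the count of the 9 enzymes with a p under 0.05 ran from 0 to 2 when a liver was left out. Over all genes, 0 passed adjustment in edgeR's quasi-likelihood test and 1797 had an unadjusted p under 0.05, whereas DESeq2 gave 167, no filter on low counts 61, and leaving out Smo-KO mouse 1 gave 78, control mouse 1 gave 5 and Smo-KO mouse 3 gave 4. The log2 fold change of Cbs ran from -0.94 to -0.56 and that of Cth from -0.47 to -0.27 when a liver was left out. That of Bhmt ran from -0.24 to -0.04, that of Mat1a from 0.01 to 0.19 and that of Gnmt from 0.02 to 0.18. Several small log2 fold changes crossed 0 when a liver was left out. Bhmt2 log2 fold change ran from -0.11 to 0.028 (positive without Smo-KO mouse 3) and Mat2a log2 fold change from -0.070 to 0.11 (at -0.05 and -0.02 without control mice 1 and 4). Ahcy log2 fold change ran from -0.28 without Smo-KO mouse 1 to 0.78 without control mouse 4. Mtr log2 fold change ran from -0.030 to 0.037 (at -0.02 without control mouse 2) and was -0.0020 with library totals alone. The causes were not tested. Summing the reads of Ahcy and Gm4737 was chosen after seeing the data.

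The titles number the livers in each group, and nothing in the labels says that a number marks a shared litter, batch or day. The correlation of same-numbered deviations was 0.104, 0.187, 0.0611 and 0.113, so not every pair exceeded the 0.1 asked for here to treat them as pairs, although 3 of 4 pairs did and 3 of 4 matched their own number best, a hint of pairing from the data. With the replicate block, 8 genes passed adjustment, the count in the lists around the enzymes was 16 (17.0%, against 16.3% of all genes), Cbs was at -0.84 (adjusted p = 0.115, edgeR's quasi-likelihood test) and Cth at -0.40 (adjusted p = 0.177), and the block changed no call of the 9 enzymes.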

Other observations

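Several genes with near-identical copies were listed at or near 0. Amd1 and Amd2, near-identical genes of the SAM decarboxylase that feeds polyamine synthesis, had 0 reads in all livers. Ass1, an abundant urea cycle enzyme of the periportal hepatocyte, had 1 read in all livers together, and Gm5424, an Ass1-related gene, had 0. Because genes used by every hepatocyte can be listed at 0 here, these values were not read as levels. Ahcy and Bhmt, which also have copies, had at least 1638 and 13739 reads in every liver, so their levels relative to the other enzymes carry an unknown error from such reads.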
